A study of Mus musculus with 48 samples.

Results

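The 8 genes described here code for the CB1 cannabinoid receptor (Cnr1), for enzymes that make endocannabinoids (Dagla, Daglb and Napepld) and for enzymes that break them down (Faah, Mgll, Abhd6 and Abhd12). They were chosen by name from the known pathway, out of 18194 genes with a probe set annotated to a single gene symbol. The choice was made with earlier results of these data known. For each gene the brightest of these probe sets, by its mean across the 48 arrays, was used. The 8 genes had 15 such probe sets, and the 7 not used served as a check. All 8 used probe sets had a mean above 5.42, the first quartile of all values of the 45101 probe sets on the log2 scale. The means of Cnr1, Dagla, Daglb, Napepld and Faah lay below that of the median gene, 8.11.

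Endocannabinoids are lipid messengers that are made on demand from membrane phospholipids. The diacylglycerol lipases Dagla and Daglb release 2-arachidonoylglycerol (2-AG), and Napepld releases anandamide from N-acyl phosphatidylethanolamines. Cnr1, a G protein-coupled receptor that couples mainly to inhibitory G proteins, binds both lipids. Mgll, Abhd6 and Abhd12 hydrolyse 2-AG, and Faah hydrolyses anandamide. The pars tuberalis (PT), the part of the pituitary that wraps the stalk below the hypothalamus, reads the night-time melatonin signal and passes day length on to the hypothalamus and the pituitary. PT cells of other mammals have been described as a source of endocannabinoids that act on CB1 in the neighbouring pars distalis.

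In RefSeq's GRCm38.p6 assembly, Cnr1 lies at chr4:33923171-33948831, Dagla at chr19:10245265-10304877, Daglb at chr5:143464484-143504442 and Napepld at chr5:21662901-21701622. Faah lies at chr4:115996668-116018837, Mgll at chr6:88724412-88828360, Abhd6 at chr14:8002888-8056773 and Abhd12 at chr2:150832493-150904779.

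The study followed the PT of male CBA/N mice, a strain that makes melatonin, through a change from short to long days. Every mouse first spent 3 weeks on short days of 8 h light. Mice of the short-day (SD) and long-day (LD) groups then had 2 more weeks of 8 h or of 16 h light and were 8 weeks old. The mice of the first-day groups were 6 weeks old and were taken on the first day of extra light: in the advance group (ADV) lights came on 8 h early, at ZT16, and in the delay group (DEL) darkness came 8 h late. ZT0 is lights on, and for the first-day groups ZT keeps the short-day schedule. Each condition was sampled at ZT0, 4, 8, 12, 16 and 20 with 2 arrays each, which gave 24 groups of 2 and 12 arrays per condition. An array holds the pooled RNA of 25 mice, punched with a needle of 0.5 mm gauge from frozen brain slices of 0.5 mm. The labels give the 2 arrays of a group as repeats of the whole procedure, and p-values rest on the spread between these 2 pools. In such a punch, fewer cells of a type and less RNA per cell cannot be told apart.

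Tshb, the thyrotropin subunit that long days raise in the PT, had a mean log2 level of 10.54 in SD, 14.09 in LD, 12.51 in ADV and 12.01 in DEL. The SD and LD ranges of Tshb did not overlap (9.72 to 11.26 and 13.77 to 14.43), as the labels would have it. Markers of other cells were read as well. None of the 5 pars distalis, 10 hypothalamic neuron or 5 astrocyte genes measured had a mean below 5.42, the first quartile of all values. That bar is low, since most values exceed it, and does not by itself show the cells. The means ran from 6.21 (Ghrhr) to 9.15 (Fshb) for pars distalis, from 7.61 (Ghrh) to 12.56 (Gad1) for neuron and from 8.58 (Gfap) to 11.17 (Slc1a3) for astrocyte markers. Gh or Prl, the hormones of the pars distalis, exceeded a log2 level of 10 on 1 array of SD, 3 of LD, 1 of ADV and 1 of DEL. The log2 ratio of the 3' to the 5' actin probe sets, a sign of RNA integrity or labelling, was 1.90 ± 0.12 (SD, n = 12) in SD, 1.65 ± 0.12 in LD, 1.69 ± 0.09 in ADV and 1.85 ± 0.13 in DEL.

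The first comparison asked how the 8 genes differed between mice adapted to long days and mice kept on short days. By the brightest probe set of each gene, Cnr1, Dagla, Mgll, Abhd6 and Abhd12 were lower on long days, and Daglb and Napepld were higher. For Cnr1 and Mgll another probe set passed in the opposite direction. Of the 8 genes, 7 passed the test, with 2 higher and 5 lower in LD. Of all 18194 genes, 46.7% passed in this comparison, 17.6% higher and 29.1% lower, so that a change as such was common. The median difference of the 8 genes was -0.15 on the log2 scale, beside -0.03 over all genes, and their median size was 0.16 beside 0.11. Differences are means over the 6 times, LD minus SD, with the standard error of limma's moderated test and p-values adjusted by Benjamini-Hochberg over all genes, at a threshold of 0.05. Adjusted p-values of other probe sets come from a separate fit over all 34958 single-symbol probe sets.

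**Figure D1:**
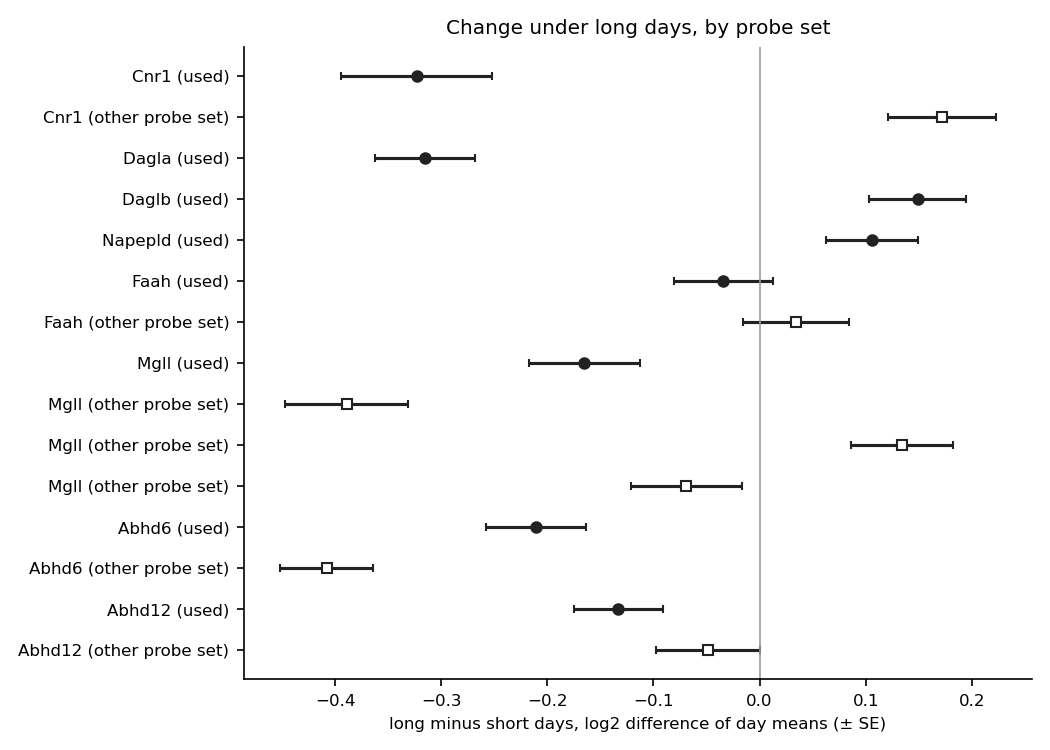
Difference LD minus SD in the day mean, on the log2 scale, for the 15 probe sets of the 8 genes, with bars of 1 SE from limma; filled circles are the probe sets used and open squares the others. The used Cnr1 probe set lies at -0.32 and the other at 0.17, both Abhd6 probe sets lie below 0, and the 4 Mgll probe sets spread from -0.39 to 0.13.

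Cnr1 ran from 7.38 over a median of 7.96 to 8.57 in SD and from 7.29 over 7.63 to 7.84 in LD. The ranges overlapped at their lower ends, but 8 of the 12 SD arrays lay above all 12 LD arrays. Cnr1 was lower in LD by a log2 difference of -0.32 ± 0.07 (SE, 1.25-fold, limma adjusted p = 0.0002266). The LD mean was the lower in 5 of 6 times. The gap was widest at ZT20, at -0.68, where the 2 SD arrays lay at 8.57 and 7.97. The repeats differed in size: Cnr1 was lower in LD by -0.48 among the arrays of replicate 1 and by -0.17 among those of replicate 2. The other Cnr1 probe set, dimmer with a mean of 6.54, went the opposite way and passed too, at 0.17 ± 0.05 (limma adjusted p = 0.006481). With the mean of both probe sets in place of the brighter one, the Cnr1 difference was -0.08 (limma adjusted p = 0.1990), so the direction holds for the brighter probe set only.

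Among the synthesis genes, Dagla, the main 2-AG synthase of the adult brain, fell and its paralog Daglb rose. Dagla ran from 7.87 over 8.12 to 8.40 in SD and from 7.62 over 7.79 to 8.06 in LD. It was lower in LD by -0.32 ± 0.05 (SE, 1.24-fold, limma adjusted p = 9.590e-07), and 10 of 12 LD arrays lay below every SD array. The Dagla difference was -0.32 among the arrays of either replicate number alone, so both repeats carried it alike.

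Daglb ran from 7.40 over 7.75 to 8.03 in SD and from 7.74 over 7.87 to 8.03 in LD. The SD range held the whole LD range, but 6 of 12 SD arrays lay below every LD array. The rise of Daglb was 0.15 ± 0.05 (SE, 1.11-fold, limma adjusted p = 0.006620) and was largest at ZT4, at 0.42. Without the 6 arrays high in Gh or Prl the adjusted p of Daglb was 0.05868, above the threshold.

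Napepld, the anandamide-releasing phospholipase, ran from 6.94 over 7.12 to 7.30 in SD and from 7.08 over 7.22 to 7.37 in LD. The ranges overlapped, with 3 LD arrays above all of SD and 4 SD arrays below all of LD. Its rise of 0.11 ± 0.04 (SE, 1.08-fold, limma adjusted p = 0.04081) was the smallest that passed. This call was lost in 14 of the 24 fits that left out a single SD or LD array and in 4 of the other settings tried.

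Of the breakdown genes, the 3 enzymes of 2-AG fell and the anandamide hydrolase did not pass. Abhd6 is a membrane serine hydrolase that takes up part of 2-AG breakdown in neurons. It ran from 9.43 over 9.66 to 9.99 in SD and from 9.30 over 9.46 to 9.67 in LD, and its LD mean was the lower at 6 of 6 times. The difference of Abhd6 was -0.21 ± 0.05 (SE, 1.16-fold, limma adjusted p = 0.0002764). The other Abhd6 probe set fell further, by -0.41 (limma adjusted p = 5.964e-09).

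Mgll, monoacylglycerol lipase and the main 2-AG hydrolase of the brain, ran from 8.56 over 8.69 to 9.27 in SD and from 8.34 over 8.60 to 8.77 in LD. The LD mean was the lower at 6 of 6 times, and the difference over the day was -0.17 ± 0.05 (SE, 1.12-fold, limma adjusted p = 0.007781). Its 3 other probe sets did not speak with 1 voice: the values were -0.39 (limma adjusted p = 1.696e-06), 0.13 (0.02206) and -0.07 (0.3107). With quantile normalization repeated, the Mgll difference was -0.08 (limma adjusted p = 0.1762).

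Abhd12, a 2-AG and lysophosphatidylserine lipase, was the brightest of the 8 used probe sets. It ran from 11.25 over 11.47 to 11.73 in SD and from 11.24 over 11.30 to 11.63 in LD. The groups shared most of their range, and the fall of Abhd12 was -0.13 ± 0.04 (SE, 1.10-fold, limma adjusted p = 0.008608). Its other probe set did not pass (-0.05, limma adjusted p = 0.4624).

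Faah ran from 7.63 over 7.80 to 7.92 in SD and from 7.54 over 7.73 to 8.04 in LD. The LD arrays of Faah were both the lowest and the highest of the 24. The difference was -0.03 ± 0.05 (SE, limma adjusted p = 0.6092), and the other Faah probe set gave 0.03 (limma adjusted p = 0.6408).

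The actin signal moved with day length. With it as a covariate, 3 of the 8 genes passed: Cnr1 at -0.43 (limma adjusted p = 0.0009979), Dagla at -0.18 (0.01750) and Daglb at 0.19 (0.02098). The values of Mgll, Abhd6 and Abhd12 were then -0.07 (limma adjusted p = 0.5154), -0.14 (0.1021) and -0.06 (0.5000), and Napepld had an adjusted p of 0.4065. Cell markers moved with day length too: 4 of 6 thyrotroph markers of the PT were higher in LD (median 0.74), and 3 of 5 tanycyte, 3 of 3 ependymal and 3 of 10 neuron markers were lower, with 1 neuron marker higher. Their part in the values of the 8 genes was not tested.

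The next comparison asked whether the genes had a daily course within a condition. On short days Mgll varied over the day and was highest at ZT4, in the middle of the light phase. Its 2 SD arrays at ZT4 had log2 levels of 8.91 and 9.27, the 2 at ZT8 had 8.61 and 8.98, and the 2 at ZT12 had 8.56 and 8.57. Of the 2 arrays at ZT4, 1 was the highest of all 48 for Mgll, and the ZT12 arrays were the lowest of SD. The means of Mgll spanned 0.53 on the log2 scale (1.44-fold, limma F over 6 times, adjusted p = 0.04409), and a fitted cosine peaked at ZT 3.50.

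Mgll was the 1 gene of 8 that passed in SD, where 8.91% of all genes did. At an unadjusted p under 0.05 there were 4 (Cnr1, Daglb, Mgll and Abhd6), beside 25.6% of all genes. The Mgll call was lost in 7 of the 12 fits that each left out 1 SD array: without replicate 2 of ZT0, replicate 1 of ZT4, either array of ZT12, replicate 2 of ZT16 or either array of ZT20. Without replicate 1 of ZT0 4 genes passed and without replicate 1 of ZT16 2 did. Without replicate 1 of ZT4 the adjusted p of Mgll was 0.4557, and in the fit over all probe sets none of the 4 Mgll probe sets passed, with adjusted p of 0.06353 for the used one and 0.2616 to 0.9212 for the others. The Mgll call was also lost with quantile normalization repeated (limma adjusted p = 0.09612), with the mean of its probe sets (0.3238), with the SD arrays alone (0.3703) and without the arrays high in Gh or Prl (0.08801).

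Abhd6 and Abhd12 had their highest and lowest SD means at the same times as Mgll, ZT4 and ZT12, but missed the threshold. The SD arrays of Abhd6 had 9.84 and 9.99 at ZT4 and 9.48 and 9.50 at ZT12 (limma adjusted p over the 6 times 0.07534). All 3 genes were higher at ZT4 than at ZT12 in both repeats, by 0.71 and 0.35 for Mgll, 0.50 and 0.37 for Abhd6, and 0.39 and 0.24 for Abhd12 (limma adjusted p over the 6 times 0.2376). Because the 2 times were picked as highest and lowest on these same arrays, the likeness of the repeats is a description and no separate test. Cnr1 had another shape: its 2 SD arrays had 8.57 and 7.97 at ZT20 and 7.96 and 7.38 at ZT4, with repeats that lay far apart (limma adjusted p = 0.09111).

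**Figure D2:**
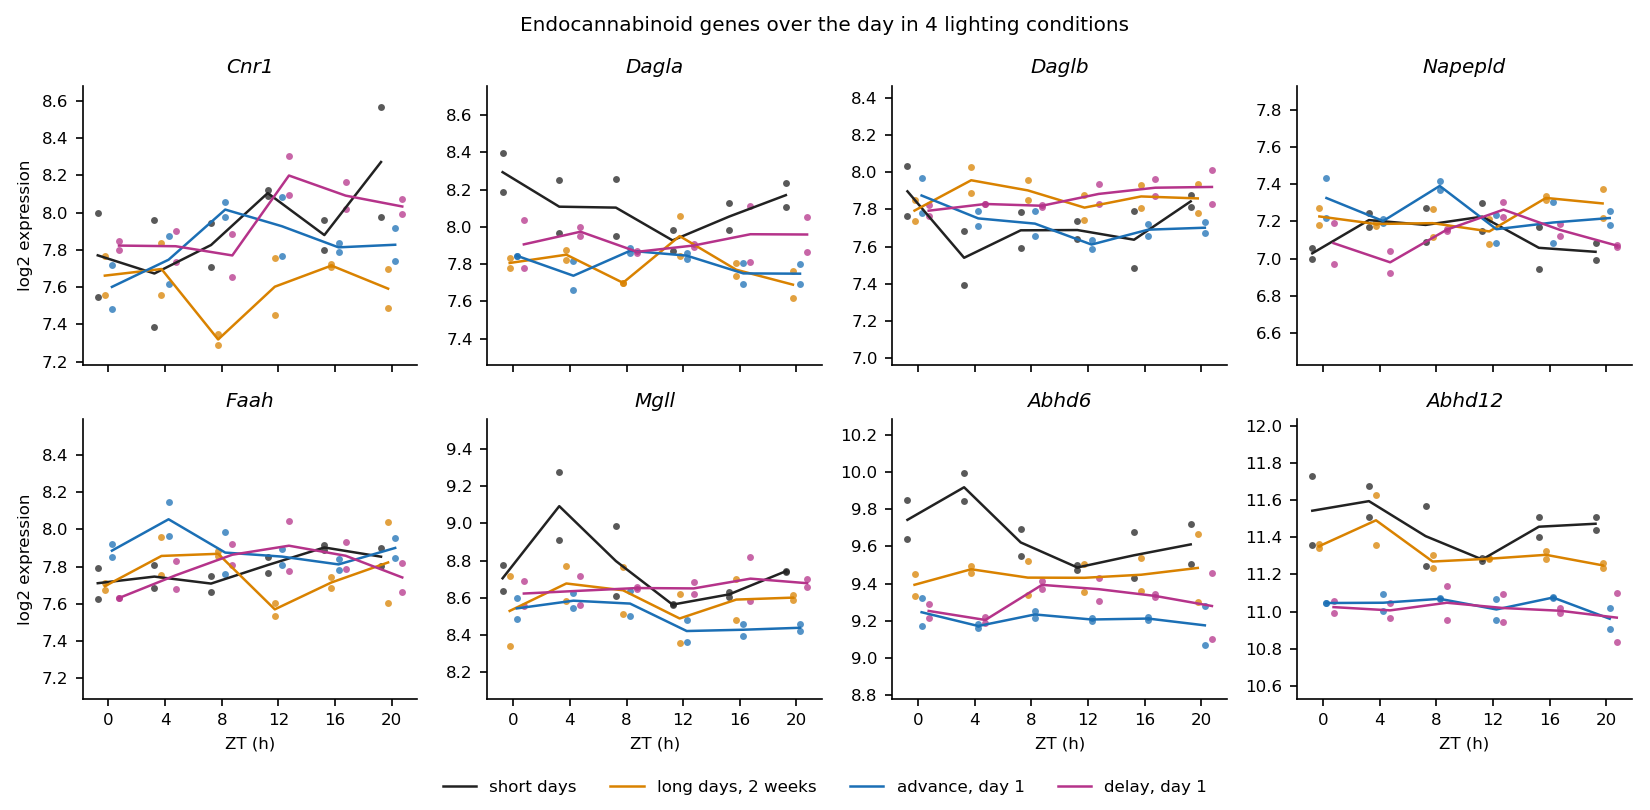
Log2 level of the 8 genes against ZT in SD, LD, ADV and DEL; points are single arrays and lines join the means of the 2 arrays at each time. On short days Mgll and Abhd6 are highest at ZT4 and lowest at ZT12, and the ADV and DEL lines of Abhd12 lie below the SD and LD lines at every time.

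In the other conditions 0 of the 8 genes passed the limma test for variation over the day, in LD, ADV or DEL. The shares of all genes that passed there were 1.63%, 2.58% and 1.52%. In LD, 0 of the 8 were under 0.05 unadjusted, where 1705 genes were. The LD means of Mgll spanned 0.19 and those of Abhd6 spanned 0.09, beside 0.53 and 0.43 in SD. The difference between these courses was itself tested: 0 of 8 passed, against 4.30% of all genes, with 3 under 0.05 unadjusted (Cnr1, Dagla and Daglb), beside 16.9% of all genes.

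The bases ahead of the start site are shown for Mgll, which passed the daily test, and for Abhd6, which was highest and lowest at the same times. They come from RefSeq's GRCm38.p6, run 5' to 3' on the plus strand that both genes use, and cover chr6:88724162-88724411 for Mgll and chr14:8002638-8002887 for Abhd6. Capitals mark CACGTG, the perfect E-box that CLOCK and BMAL1 bind, and TGACG, the core of a cAMP response element, was searched as well, both strands each.

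Mgll: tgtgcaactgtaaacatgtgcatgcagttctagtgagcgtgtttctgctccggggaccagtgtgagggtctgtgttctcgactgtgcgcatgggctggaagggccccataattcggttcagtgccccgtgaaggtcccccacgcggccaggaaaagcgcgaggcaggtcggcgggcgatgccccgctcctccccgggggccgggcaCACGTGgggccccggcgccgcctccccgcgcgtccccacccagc
Abhd6: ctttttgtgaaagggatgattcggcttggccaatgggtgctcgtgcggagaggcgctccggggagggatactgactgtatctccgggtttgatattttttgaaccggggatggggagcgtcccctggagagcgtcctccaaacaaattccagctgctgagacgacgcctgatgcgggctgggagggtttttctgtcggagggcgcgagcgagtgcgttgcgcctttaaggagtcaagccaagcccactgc

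Mgll held 1 CACGTG, 44 bases before the start, and Abhd6 held none in this window. RefSeq's promoter table had 10 entries for 6 of the 8 genes (Dagla and Abhd12 are named only). CACGTG was in 1 entry each of Mgll and Cnr1, the latter 49 bases before its start in chr4:33924394-33924643. Of 32851 promoters of 250 bases in that table, 6.02% held CACGTG. The other motif, TGACG, was in none of the 10 entries and in 17.8% of all promoters. These are matches of letters, not tests of binding.

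The first-day groups allowed the question of what the first hours of light at an unusual time did. Light in the late night was read as the change from ZT16 to ZT20 in ADV minus the same change in SD, which is dark then. None of the 8 genes passed (0 of 8 by limma, 0 under 0.05 unadjusted), beside 0.220% of all genes, 40 of 18194, with 1128 unadjusted. The largest difference was that of Cnr1. Its ADV arrays had 7.79 and 7.84 at ZT16 and 7.74 and 7.92 at ZT20, and its SD arrays had 7.96 and 7.80 and then 8.57 and 7.97. The ADV change was 0.01 and the SD change 0.39, a difference of -0.38 ± 0.24 (SE). It rested on the SD arrays at ZT20: without replicate 1 of them it was -0.08 and without replicate 2 it was -0.68. The other 7 genes lay between -0.20 ± 0.16 (Daglb) and 0.14 ± 0.16 (Faah).

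Light in the evening was read as the change from ZT8 to ZT12 in DEL minus that in SD. Again 0 of 8 passed by limma and 0 unadjusted, beside 0.0385% of all genes, 7 in number, with 1380 unadjusted. The largest difference was that of Mgll, 0.23 ± 0.18 (SE). Its DEL arrays had 8.65 and 8.66 at ZT8 and 8.68 and 8.62 at ZT12, while its SD arrays fell from 8.98 and 8.61 to 8.57 and 8.56. The other 7 lay between -0.05 (Faah) and 0.21 ± 0.16 (Dagla). In the test of the late-night minus the evening response, 0 of 8 passed (0.159% of all genes, 29, with 1893 unadjusted), and Cnr1 again had the largest difference, -0.53 ± 0.34 (SE). With standard errors of this size, a change of the order seen between SD and LD was not detectable over 4 h.

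With both lit evening times pooled, ZT12 and ZT16 against ZT0 to ZT8 in DEL, less the same in SD, 0 of 8 passed, beside 6.11% of all genes. Unadjusted, 26.8% of all genes were under 0.05, and 2 of the 8: Abhd6 at 0.31 ± 0.10 (SE, limma adjusted p = 0.06137) and Mgll at 0.31 ± 0.12 (0.08217). In both, the SD arrays were lower in the evening (-0.24 and -0.27) and the DEL arrays were near level (0.07 and 0.04). Of the 8 genes, 2 passed without replicate 2 of SD at ZT4 or at ZT8, and 1 without replicate 1 of SD at ZT0 or replicate 2 of SD at ZT16. The other Abhd6 probe set did pass, at 0.42 (limma adjusted p = 0.03051). The other Mgll probe sets did not, at 0.40, 0.20 and -0.13. Under the other settings tried, the difference ran from 0.19 to 0.37 for Abhd6 and from 0.20 to 0.31 for Mgll. The median over all genes was 0.06, and 0.001 with quantile normalization repeated.

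**Figure D3:**
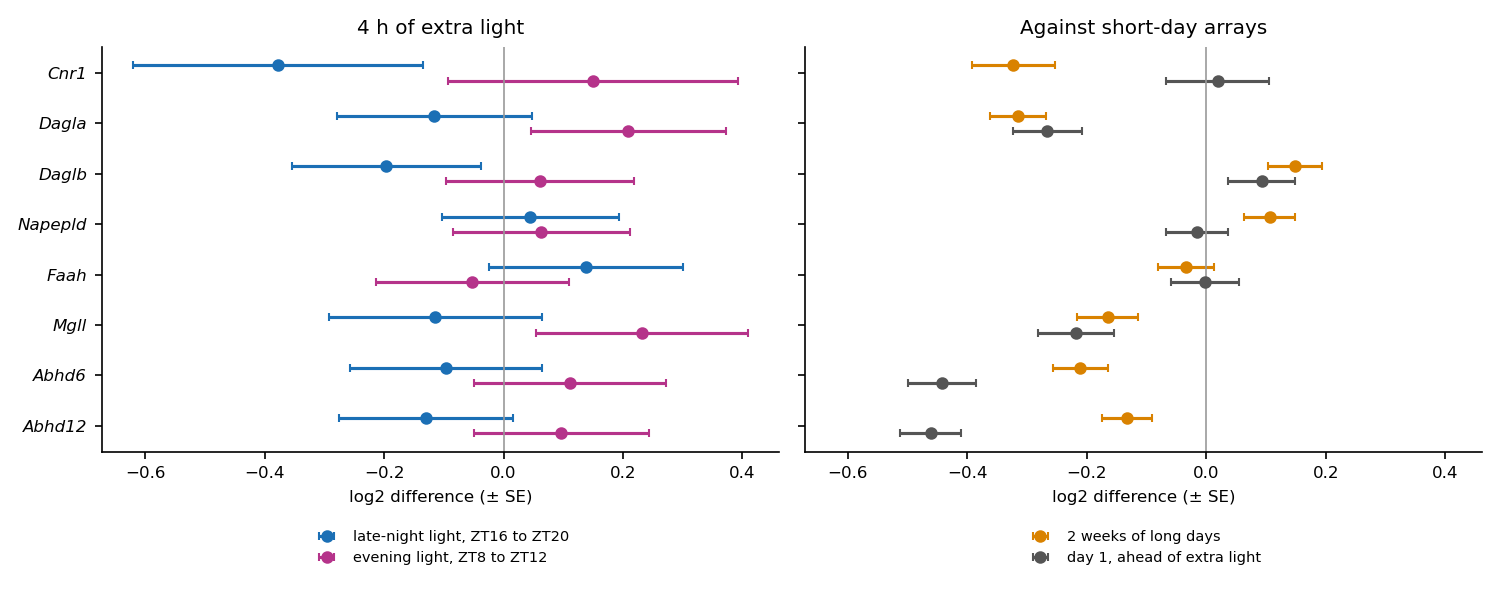
Log2 differences of the 8 genes with bars of 1 SE from limma; the left panel shows the first 4 h of late-night light (ADV) and of evening light (DEL), each less the SD change, and the right panel LD minus SD and the first-day arrays ahead of extra light minus SD. None of the 8 passed in either response on the left, where the bars are wide, and on the right Abhd6 and Abhd12 lie lowest, at -0.44 and -0.46 in the first-day arrays.

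Advance and delay were then compared at ZT0 to ZT8, when the mice had the same age and only ADV had had extra light. Napepld was the 1 gene of 8 that passed, and it was higher in ADV. Of all genes 8.76% passed, 5.54% higher and 3.22% lower. Napepld ran from 7.19 over 7.29 to 7.43 in the 6 ADV arrays and from 6.92 over 7.09 to 7.19 in the 6 DEL arrays, so that 5 of 6 ADV arrays lay above all of DEL. The difference was 0.23 ± 0.06 (SE, 1.18-fold, limma adjusted p = 0.01287), with 0.21 and 0.26 in the 2 repeats. The SD mean of Napepld at these times was 7.14, between 7.31 in ADV and 7.07 in DEL.

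Without the arrays high in Gh or Prl the adjusted p of Napepld was 0.05638, without replicate 1 of ADV at ZT0 it was 0.07170, and without replicate 2 of DEL at ZT4 it was 0.05369. Faah, the enzyme that breaks down the lipid Napepld makes, missed the threshold at 0.19 ± 0.07 (SE, limma adjusted p = 0.06942). It ran from 7.76 over 7.94 to 8.15 in ADV and from 7.63 over 7.74 to 7.92 in DEL, with 3 of 6 ADV arrays above all of DEL. The used probe set of Abhd6 did not pass, but its other probe set was lower in ADV, at -0.26 (limma adjusted p = 0.007510).

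**Figure D4:**
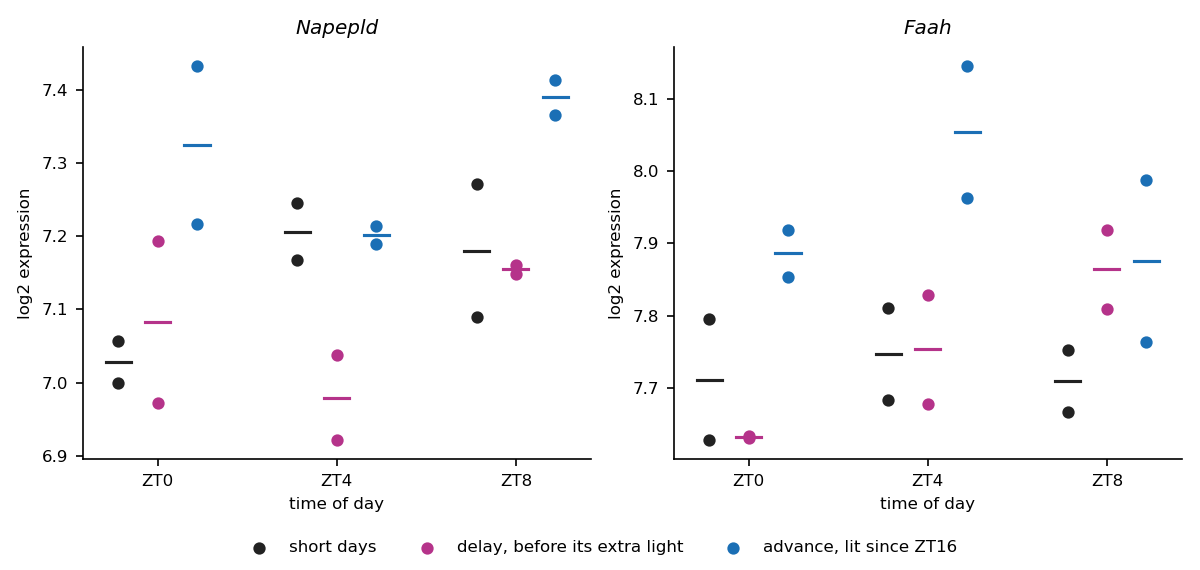
Log2 level of Napepld and Faah at ZT0, ZT4 and ZT8 in SD, DEL and ADV; each point is 1 array and the bar is the mean of the 2. For Napepld 5 of the 6 ADV arrays lie above every DEL array, and for Faah 3 of 6 do.

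The last comparison set first-day arrays that had not yet had extra light (ADV at ZT16 and DEL at ZT0 to ZT8) against SD at the same times. These arrays share the light schedule up to the time of sampling but differ in age, 6 against 8 weeks, and in the set of mice. They differ in the time on short days as well, since the SD mice had 2 more weeks after the first 3. These differences cannot be told apart. Of the 8 genes, 4 passed (Dagla, Mgll, Abhd6 and Abhd12), all lower in the younger mice. Of all genes 48.8% passed, 21.8% higher and 27.0% lower, so the count of 8 is near the share of all genes. Cnr1 (0.02), Daglb (0.09, limma adjusted p = 0.1697), Napepld (-0.02) and Faah (-0.002) did not pass.

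Abhd12 ran from 10.96 over 11.05 to 11.14 on the 8 first-day arrays and from 11.25 over 11.51 to 11.73 on the 8 SD arrays, with no overlap. The fall was -0.46 ± 0.05 (SE, 1.38-fold, limma adjusted p = 9.727e-09). Abhd6 did not overlap either, with 9.19 over 9.22 to 9.41 against 9.43 over 9.69 to 9.99, and fell by -0.44 ± 0.06 (SE, 1.36-fold, limma adjusted p = 1.171e-07). Among all genes, 9.66% did not overlap in this comparison, 6.83% with the first-day arrays lower. Dagla (-0.27 ± 0.06, limma adjusted p = 0.0002592) and Mgll (-0.22 ± 0.06, 0.004637) fell less, and their arrays overlapped.

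By the used probe set, the gap of Abhd12 held over the whole day. All 24 ADV and DEL arrays, from 10.84 to 11.14, lay below all 24 SD and LD arrays, from 11.24 to 11.73. Of all genes 0.176% separated these 48 arrays, 0.154% with the first-day arrays lower. Of the first-day arrays of Abhd6, 16 of 24 lay below all SD and LD arrays by the used probe set. The other Abhd12 probe set had means much closer together, 9.580 in SD, 9.530 in LD, 9.474 in ADV and 9.414 in DEL. Their standard deviations were 0.096 to 0.145. The other Abhd6 probe set did not split this way, with means of 9.522 in SD, 9.113 in LD, 9.105 in ADV and 9.451 in DEL. The other probe sets of Abhd12 (-0.17, limma adjusted p = 0.02176) and Abhd6 (-0.25, 0.0003871) were lower before extra light too, by less. Hypothalamic neuron markers moved the same way: 7 of 10 measured were lower and 0 higher, with a median of -0.43. Their mean log2 level ran from 10.68 to 11.21 in SD, 10.61 to 10.93 in LD, 10.27 to 10.62 in ADV and 10.34 to 10.79 in DEL. The 3 ependymal markers were lower as well, and 3 of 5 tanycyte and 3 of 5 astrocyte markers, with 0 and 1 higher. Markers of the pituitary went mostly the other way. Of 6 thyrotroph markers of the PT, 3 were higher, Tshb among them, and 1 was lower. Of 5 pars distalis markers, 2 were higher and 0 lower. The part of these cells in this difference was not tested.

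Over the 4 conditions, the order of the mean log2 levels of the used probe sets differed between the genes. The mice of ADV and DEL were 6 weeks old and those of SD and LD 8 weeks. Cnr1 ran DEL, SD, ADV, LD from high to low, Dagla SD, DEL, ADV, LD, and Daglb LD, DEL, ADV, SD. Napepld ran ADV, LD, SD, DEL and Faah ran ADV, DEL, SD, LD. Mgll ran SD, DEL, LD, ADV, Abhd6 ran SD, LD, DEL, ADV, and Abhd12 ran SD, LD, ADV, DEL. By the used probe sets SD was thus the highest condition for Dagla and for each of the 3 enzymes that hydrolyse 2-AG. Neighbours in these orders overlapped in their arrays in every case but 1, the step of 0.29 from LD to ADV in Abhd12. The ADV arrays of Cnr1 ran from 7.48 over 7.81 to 8.09 and its DEL arrays from 7.66 over 7.95 to 8.30. The other Cnr1 probe set had the reverse order, LD, ADV, SD, DEL, from a mean of 6.685 down to 6.383. The other Mgll probe sets were highest in SD (7.63), in LD (7.38) and in DEL (6.78). Those of Abhd6 and Abhd12 were highest in SD.

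Over the 24 group means, Cnr1 spanned 0.95 on the log2 scale (1.94-fold), from 7.32 in LD at ZT8 (arrays 7.29 and 7.35) to 8.27 in SD at ZT20. Abhd6 spanned 0.75, Mgll 0.67, Abhd12 0.63 and Dagla 0.61. Faah (0.48), Daglb (0.42) and Napepld (0.41) stayed below 0.49, the median span of all genes. The genes most like a member over these 24 means, by Pearson's r among 9096 or 9097 genes, were Ublcp1 (0.87), Ankrd13c (0.81) and Pde12 (0.80) for Cnr1. For Abhd6 they were Eif3d (0.96), Flii (0.95) and Caly (0.95), and for Mgll they were Tppp3 (0.91), Scap (0.89) and Clstn1 (0.89). These r values are descriptions over means of the same arrays.

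Other genes of the pathway were listed by role, 22 in all, of which 20 were measured. Between LD and SD 12 of 20 passed, 4 higher and 8 lower, beside 46.7% of all genes, 17.6% higher and 29.1% lower: 2 of 5 receptors and receptor partners, 6 of 9 synthesis genes, 1 of 2 breakdown genes and 3 of 4 lipid carriers. Gde1, a glycerophosphodiesterase that takes part in another route to anandamide, fell by -0.36 ± 0.04 (SE, limma adjusted p = 1.927e-09). Plcb1, a phospholipase C that yields the diacylglycerol Dagla uses, rose by 0.34 ± 0.04 (limma adjusted p = 5.463e-08). Pla2g4e, an N-acyltransferase upstream of Napepld, fell by -0.22 ± 0.05 (limma adjusted p = 0.0002159), and Gdpd3 by -0.16 ± 0.06 (0.02587). Of the 4 listed lipid carriers, the fatty acid-binding proteins Fabp5 (-0.24 ± 0.05, limma adjusted p = 0.0001381) and Fabp3 (-0.20 ± 0.07, 0.01756) fell too. Another of the 4, 1 gene, was higher, and Fabp7 did not pass (-0.005, limma adjusted p = 0.9450).

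Over the day 2 of these 20 passed in SD, Cnrip1 and Fabp7, beside 8.91% of all genes. Fabp7 alone did in LD, in ADV, in DEL and in the difference in course between LD and SD. The shares of all genes there were 1.63%, 2.58%, 1.52% and 4.30%. In the responses to late-night and to evening light and in their difference, 0 of 20 passed, beside 0.220%, 0.0385% and 0.159% of all genes. At ZT12 and ZT16 of DEL 3 of 20 passed, all higher (Gde1, Fabp3 and Fabp5). Of all genes 6.11% passed there, and 84.4% of these were higher, or 45.1% with quantile normalization repeated. Cnrip1, a protein that binds the tail of CB1, was the 1 of 20 that passed in ADV minus DEL, and was higher in ADV. Of all genes 8.76% passed in that comparison. Among first-day arrays ahead of extra light 12 of 20 passed, 5 higher and 7 lower, beside 48.8% of all genes. Cnrip1 and Fabp7 are named outside the rule for named genes, after their values were seen.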

How the data were processed

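Affymetrix mouse expression arrays were hybridised with PT RNA pools. The authors deposited RMA values on the log2 scale, made with R 2.8.0 per the submitters' processing notes; the probe summarisation is therefore theirs, and no depth applies to arrays. Of 45101 probe sets, 34958 had 1 gene symbol in GEO's platform annotation, 932 had several and 9211 had none, and only the first were used, 1 per gene. Levels of different probe sets are not comparable, and other probe sets of a gene can read other transcript ends.

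All 48 arrays entered a single fit with 24 group means (24 residual degrees of freedom), made with limma 3.58.1 (lmFit, eBayes with a trend) in R 4.3.3. Tests were two-sided moderated or F tests, adjusted by Benjamini-Hochberg over 18194 genes at 0.05; other probe sets of the members were read from the same model fitted to all 34958 single-symbol probe sets, adjusted over these. The code was tested on simulated data. Alternatives covered the replicate number as a block, repeated quantile normalization, the mean of a gene's probe sets, arrays left out, the actin signal as a covariate and other settings.

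The members and gene lists were chosen with earlier results of these data known. All 8 members are named, of other pathway genes up to 6 that passed with the largest LD minus SD difference, and the 3 genes most like Cnr1, Abhd6 and Mgll.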

Additional observations from a re-analysis of the deposited data

How the results depend on the processing

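Of 896 values of the 8 genes under the alternative settings, 870 stayed on their side of the threshold, and of 2112 values with a single array left out, 2076 did. Most of the results counted had not passed in the main fit. No value that passed turned its sign, but values that did not pass could: the Faah difference between LD and SD ran from -0.12 to 0.04. The replicate blocks and the fit of only the compared conditions left the differences themselves unchanged, so no sign could turn there. Single other probe sets were not among the settings. In LD minus SD, another probe set of Cnr1 (0.17) and another of Mgll (0.13) passed with the opposite sign. The count of the 8 genes that passed in LD minus SD was 7, 3 with the actin signal as a covariate, 5 without the arrays high in Gh or Prl, and 6 with quantile normalization repeated, with the mean of all probe sets, with only SD and LD in the fit and without 2 LD arrays whose clock genes stood apart. It was 6 to 7 with an array left out. For daily variation in SD the count was 1: it was 2 with the replicate number as a block over all arrays and 3 with the block within each condition, and 0 with quantile normalization repeated, with the mean of all probe sets, with only the SD arrays in the fit, and without the arrays high in Gh or Prl. It ranged from 0 to 4 with a single array left out, with 4 without replicate 1 of ZT0 and 2 without replicate 1 of ZT16. For DEL at ZT12 and ZT16 the count was 0: it was 2 with either block and 1 with the mean of all probe sets, and 0 to 2 with an array left out. For ADV minus DEL the count was 1: it was 2 with the block within each condition, with quantile normalization repeated and with the mean of all probe sets, 0 without the arrays high in Gh or Prl, and 0 to 1 with an array left out. The other counts, 4 for the first-day arrays ahead of extra light and 0 for the rest, were the same under every setting tried. Arrays with the same number did not deviate together throughout (median r 0.05, over 0.1 in 98 of 276 pairs). Within conditions r was over 0.1 in 14 of 15 pairs of LD, 11 of 15 of DEL, 6 of 15 of ADV and 3 of 15 of SD. With a block, Abhd6 and Mgll passed for DEL at ZT12 and ZT16, and Abhd6 passed for daily variation in SD, as did Cnr1 with the block within each condition.

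Counts over all genes moved more. With only the compared conditions in the fit or without the arrays high in Gh or Prl, and under the other settings, they ranged from 5006 to 8995 in LD minus SD (8503), 89 to 2838 in the daily variation of SD (1621), 83 to 439 of LD (296), 320 to 1325 of ADV (470) and 92 to 497 of DEL (276). They ranged from 85 to 1265 for the difference in course (782), 0 to 11 for evening light (7), 9 to 45 for late-night minus evening light (29), 56 to 2389 for DEL at ZT12 and ZT16 (1112) and 935 to 2254 for ADV minus DEL (1593). With quantile normalization repeated, the passing genes were 3982 higher and 4321 lower in LD minus SD, beside 3200 and 5303, and the share that were higher moved from 51.7% to 72.4% in late-night minus evening light, from 84.4% to 45.1% for DEL at ZT12 and ZT16 and from 63.3% to 53.0% for ADV minus DEL. The median of all genes was -0.11 in late-night minus evening light and -0.01 after that normalization.

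With 2 pools per group, changes over a single interval of 4 h had standard errors of 0.15 to 0.24, so differences as small as those between SD and LD could not be detected there.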
